A study of Mus musculus with 8 samples.

Results

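Cyp2e1, Slc1a3, Acvr1c, Rgs7, Sntb1, Eva1c and Syt1 were followed as a set of genes described as lost from adipocytes of visceral fat on a high-fat diet. They are 7 of the 56749 features counted, taken by symbol in all 8 single-nucleus libraries, and they were chosen by their lower level in adipocytes of mCherry HFD than of mCherry SD mice in earlier results of these same data. Their difference between the diets in adipocytes is therefore given as a description, with no test, and so is every comparison of a member in adipocytes that uses either mCherry group. Tests in adipocytes that use those groups are given for genes that are no members. The adipocyte-like nuclei numbered 5283 of 30209. Visceral white adipose tissue came from 8 mice in 4 groups of 2. All 8 mice carried an mCherry insertion, a red fluorescent protein, on 1 copy of p21, the cell cycle inhibitor gene also named Cdkn1a, so no group had p21 unmodified on both copies. Tissue and genotype are those of the sample labels. The design text of the series differs from them, in that it names SVF as the source and p21+/- as a high-fat group. The first group was p21+/mCherry on the standard diet (mCherry SD) and the second was p21+/mCherry on the high-fat diet (mCherry HFD). The other groups also ate the high-fat diet and were p21+/mCherry-Tert (Tert HFD) and p21+/mCherry-TertCi (TertCi HFD), with the p21 promoter driving the Tert insertions. Tert is the catalytic subunit of telomerase, and the labels do not say how TertCi differs from it. No Tert or TertCi mouse ate the standard diet, so genotype was compared on the high-fat diet alone. The values of a group are always given in the same order of its mice, called the first and the second, which are names only.

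Adipocytes of visceral fat store triglyceride, release fatty acids under adrenergic and insulin control, and take up glucose and lipids from the blood. Acvr1c is a type I receptor of the activin branch of TGF-beta signalling that is abundant in fat cells and restrains lipolysis there. Cyp2e1 is a cytochrome P450 of the endoplasmic reticulum that oxidises ethanol and other small molecules, and Slc1a3 carries glutamate and aspartate into cells. Rgs7 speeds the switching-off of inhibitory G proteins, Sntb1 is an adaptor of the dystrophin complex under the plasma membrane, Eva1c is a membrane protein that binds Slit ligands, and Syt1 is the calcium sensor of vesicle release in neurons.

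Total UMIs, that is counted RNA molecules, ran from 23378488 to 139749876 per library, with 1978 to 7433 nuclei and a median of 1682 to 7133.5 UMIs per nucleus. Adipocyte-like nuclei were those of 4 clusters of 36, named from fixed markers such as Adipoq, Plin1, Cidec and Lipe. A further 17 clusters scored for more than 1 cell class and stayed unnamed. Adipocyte-like nuclei held a median of 3703 and 5718 UMIs in mCherry SD and 16649.5 and 7240 in mCherry HFD. In Tert HFD it was 9529 and 2080, and in TertCi HFD 6075.5 and 5610. All nuclei of the mCherry HFD mice had medians of 7037 and 2966. The cause of this difference in depth was not tested. The adipocyte-like share of nuclei was 25.1% ± 3.22 (SD, n = 2 mice) in mCherry SD and 3.21% ± 0.260 (SD, n = 2 mice) in mCherry HFD, where only 252 and 87 such nuclei were counted. It was 20.1% ± 9.10 (SD, n = 2 mice) in Tert HFD and 27.6% ± 4.00 (SD, n = 2 mice) in TertCi HFD. The unnamed mixed clusters held 60.2% ± 4.86 (SD, n = 2 mice) of the nuclei in mCherry SD and means of 25.1% to 28.7% in the other groups. With mixed clusters led by adipocyte markers added, the share was 64.7% and 66.6% in mCherry SD and 4.00% and 4.38% in mCherry HFD. It was 23.5% and 35.7% in Tert HFD and 37.6% and 41.3% in TertCi HFD. The order of mCherry SD and TertCi HFD thus depends on those clusters. In mCherry SD, Cidec averaged 1058 and 966 CPM (unit explained below) in the added clusters numbered 1 and 5. It averaged 908 CPM in barcodes under 100 UMIs and 1544 CPM in adipocyte-like nuclei. Plin1 averaged 366 and 322 CPM in those clusters, 295 CPM in those barcodes and 504 CPM in adipocyte-like nuclei. Whether the added nuclei are adipocytes was not tested. Different clusters held most of the class in each diet: the cluster numbered 8 held 62.5% and 74.7% of the adipocyte-like nuclei of the mCherry SD mice, and the cluster numbered 9 held 58.7% and 67.8% of those of the mCherry HFD mice. Cluster 17 held 55.2% and 23.3% of those of the Tert HFD mice and 77.5% and 46.2% of those of the TertCi HFD mice. Cluster 14 held 60.9% of those of the second Tert HFD mouse, 0.211% in the first, and 0% and 2.30% in mCherry HFD. Cyp2e1 and Slc1a3 were themselves among the 10 leading genes of cluster 8. In pairs of libraries, 0 to 14 nucleus barcodes were shared. With 2 mice a group, p-values rest on the spread between mice within groups, which so few mice estimate poorly. The edgeR fit pools that spread over the groups and steadies it with that of the other genes tested.

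RefSeq promoter sequences (build GRCm38.p6) matched 6 of the 7 members, and 3 of those that held a searched motif are shown, with the motif in capitals. Each runs 5′ to 3′ on the strand of its gene and ends at the last base before the transcription start. Capitals mark a motif found by letter search on both strands: the TATA box TATAAA in Cyp2e1 (chr7:140763569-140763818, plus strand), the letters TTCNNNGAA, which read the same on both strands, in Slc1a3 (chr15:8710808-8711057, minus strand) and the GC box GGGCGG or its reverse complement in Acvr1c (chr2:58357759-58358008, minus strand).
Cyp2e1: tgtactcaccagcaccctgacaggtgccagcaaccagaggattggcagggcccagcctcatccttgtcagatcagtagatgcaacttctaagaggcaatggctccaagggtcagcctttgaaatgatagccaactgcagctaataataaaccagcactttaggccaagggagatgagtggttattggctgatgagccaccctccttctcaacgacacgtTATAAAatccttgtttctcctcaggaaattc
Slc1a3: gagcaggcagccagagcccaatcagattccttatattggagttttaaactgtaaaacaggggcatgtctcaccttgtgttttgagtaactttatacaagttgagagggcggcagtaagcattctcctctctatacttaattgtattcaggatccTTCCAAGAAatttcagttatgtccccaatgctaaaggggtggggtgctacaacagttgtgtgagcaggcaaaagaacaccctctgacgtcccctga
Acvr1c: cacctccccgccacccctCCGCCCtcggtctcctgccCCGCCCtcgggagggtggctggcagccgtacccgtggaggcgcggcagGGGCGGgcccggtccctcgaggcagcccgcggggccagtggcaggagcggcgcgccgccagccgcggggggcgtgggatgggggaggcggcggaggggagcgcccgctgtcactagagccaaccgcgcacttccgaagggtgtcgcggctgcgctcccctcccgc
The TATAAA of Cyp2e1 began 31 bases before the start, at position -31, and 12.4% of the 32851 RefSeq promoters held those letters in the same 250 bases. The TTCNNNGAA of Slc1a3 began at position -96, and 7.02% of promoters held it. Acvr1c held GGGCGG 3 times, at positions -232 and -213 on the opposite strand and at -165 on its own strand, against 32.7% of promoters with at least 1 match. GC made up 48.8% of the Cyp2e1 window, 44.8% of the Slc1a3 window and 79.6% of the Acvr1c window shown. RefSeq gives Acvr1c a second start, and the window before it (chr2:58324808-58325057, 49.6% GC) held no GGGCGG. The Slc1a3 window also held unmarked matches to the TATA box and the GC box. The CCAAT box, searched as CCAAT and held by 33.8% of promoters, was matched but is unmarked in the Cyp2e1 and Slc1a3 windows. These are matches of letters in a window and say nothing of which factor binds there.

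Cyp2e1, the P450 enzyme, showed the largest diet difference among the members measured in both groups, as long as both mCherry HFD mice were kept. Without the first of them that of Eva1c was larger, at -9.86 on the log2 scale, against a mouse with 0 UMIs of Eva1c. Levels are counts-per-million values (CPM) with TMM-scaled library sizes, from the UMIs summed over the adipocyte-like nuclei of a mouse. Cyp2e1 stood at 451 and 589 CPM in the mCherry SD mice, at 27.2 and 1.76 CPM in the mCherry HFD mice, at 53.9 and 29.5 CPM with Tert and at 56.7 and 76.2 CPM with TertCi. Both standard-diet mice were far above all 6 high-fat mice, and both mice of each Tert group were above both mCherry HFD mice. The log2 fold change was -4.79 (SE 0.584) from mCherry SD to mCherry HFD, 1.20 (SE 0.552) from mCherry HFD to Tert HFD and 1.81 (SE 0.545) to TertCi HFD. The value of the second mCherry HFD mouse rests on 2 UMIs, and without the first mCherry HFD mouse the diet difference became -8.21. Over all alternatives run the Tert difference of Cyp2e1 ranged from 0.53 to 4.61 and its TertCi difference from 0.98 to 5.23. After each nucleus was thinned to 1000 UMIs, so that depth was equal, Cyp2e1 was seen in 31.8% and 40.7% of the adipocyte-like nuclei on the standard diet, in 1.59% and 0% in mCherry HFD, in 5.68% and 2.26% with Tert and in 4.50% and 5.73% with TertCi. The 0 of 87 nuclei of the second mCherry HFD mouse allows up to 3.45% of nuclei with a UMI at that depth and sets no limit on nuclei that express the gene. Before thinning 2 of those 87 nuclei, 2.30%, held a Cyp2e1 UMI. Macrophage-like nuclei, which should lack Cyp2e1, gave 0.990% and 5.70% in the same standard-diet mice. Clusters that also scored for adipocytes stayed unnamed, so this background may be low, here and for Slc1a3 and Eva1c below.

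Other genes of the P450 list, which gathers P450 enzymes, their electron donors and aldehyde and epoxide enzymes, moved in both directions. Of 22 genes other than Cyp2e1, 20 were tested, and in mCherry HFD against mCherry SD 3 rose and 5 fell by edgeR's quasi-likelihood test at an adjusted p under 0.05. Over all 15268 genes tested, 26.2% were called in that comparison, 15.9% higher and 10.3% lower. Por, the reductase that hands electrons to all microsomal P450 enzymes, fell from 1068 and 878.5 CPM to 258 and 243 CPM (log2 fold change -1.96, SE 0.240, edgeR adjusted p 0.000840). It was higher again in both Tert groups, by 1.30 with Tert and 1.62 with TertCi on the log2 scale (edgeR adjusted p 0.0130 and 0.00225). Aldh1a1, an aldehyde and retinal dehydrogenase, fell by 0.76 with the diet and was 1.73 higher in TertCi HFD than in mCherry HFD. Cyp7b1 and Cyp1b1 rose with the diet, by 3.07 and 2.13, from 3.29 and 2.30 CPM and from 2.05 and 3.36 CPM. Those risers moved with RNA of progenitors in the same nuclei: the summed level of 9 progenitor markers, all detected, was 764 and 808 CPM in mCherry SD and 1623 and 2941 CPM in mCherry HFD. Its part in these rises was not tested.

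Slc1a3, the glutamate and aspartate transporter, was measured with 261 or more UMIs in every mouse. It stood at 2674 and 2042 CPM in mCherry SD, at 216 and 229.6 CPM in mCherry HFD, at 508 and 807 CPM in Tert HFD and at 596 and 526 CPM in TertCi HFD. No high-fat mouse reached the standard-diet mice, and all 4 Tert and TertCi mice lay above both mCherry HFD mice. The log2 fold change was -3.41 (SE 0.266) with the diet, 1.56 (SE 0.249) with Tert and 1.34 (SE 0.248) with TertCi. In nuclei thinned to equal depth the share with an Slc1a3 UMI was 86.2% and 79.8% on the standard diet and 26.2% and 21.8% in mCherry HFD, against 10.9% and 10.8% of macrophage-like nuclei of the standard-diet mice. The glutamate list had 14 tested genes of 18 besides Slc1a3, of which 1 rose and 3 fell with the diet. Gpt2, which makes alanine from glutamate, fell by 1.57 and was higher by 1.58 with Tert and by 1.87 with TertCi (edgeR adjusted p 0.00210, 0.00670 and 0.00143). Asns, which makes asparagine, and Slc1a5, the glutamine exchanger, fell by 2.09 and 0.97 with the diet. Slc25a13, a mitochondrial aspartate-glutamate carrier, was the gene that rose, by 2.24 on the log2 scale. Glud1, which turns glutamate into a citric acid cycle intermediate, was not called in any of the comparisons.

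Acvr1c, the activin-type receptor, stood at 1051 and 1178 CPM in mCherry SD, at 283 and 245 CPM in mCherry HFD, at 764 and 388 CPM in Tert HFD and at 844 and 660.3 CPM in TertCi HFD. The standard-diet mice were above every high-fat mouse, and the second Tert HFD mouse was the lowest of the 4 mice with Tert or TertCi. The log2 fold change was -2.07 (SE 0.296) with the diet, 1.12 (SE 0.289) with Tert and 1.51 (SE 0.291) with TertCi. Of the other receptors, ligands and SMAD proteins of the activin and TGF-beta list, 17 of 25 were tested, and with the diet 4 fell and 1 rose. The type I receptor Acvr1 fell from 467 and 282 CPM to 105 and 127.6 CPM (log2 fold change -1.70, SE 0.242, edgeR adjusted p 0.00164), the type II receptor Acvr2b (named after its values were seen) by 1.21, the co-receptor Tgfbr3 by 1.48 and the BMP receptor Bmpr1a by 0.81. Bmpr1a was 0.71 higher in each of the Tert groups than in mCherry HFD (edgeR adjusted p 0.0459 and 0.0252). Fst, a secreted inhibitor of activin, was the gene that rose, from 0.821 and 2.83 CPM to 8.82 and 11.4 CPM, beside the rise of progenitor marker RNA given above. Smad2, Tgfbr1 and Bmpr2 were not called in any of the comparisons.

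Rgs7, the G protein regulator, differed little between the mice of each group other than TertCi HFD. It stood at 388 and 398 CPM in mCherry SD, at 111 and 121 CPM in mCherry HFD, at 235 and 250.3 CPM in Tert HFD and at 299 and 392 CPM in TertCi HFD. The second TertCi HFD mouse lay between the standard-diet mice, while the other high-fat mice lay below both. The log2 fold change was -1.77 (SE 0.186) with the diet, 1.07 (SE 0.184) with Tert and 1.58 (SE 0.185) with TertCi. In the list of RGS proteins and partners of the R7 family, 16 of 24 other genes were tested, with 2 higher and 3 lower in mCherry HFD than in mCherry SD. Gnb5, the G beta subunit that pairs with R7 proteins and was named after its values were seen, fell by 0.99 (edgeR adjusted p 0.0102) and Gnai1, an inhibitory G alpha, fell by 1.12 (edgeR adjusted p 0.00895). Gnai1 was higher in both Tert groups than in mCherry HFD, by 1.05 and 1.26 (edgeR adjusted p 0.0261 and 0.00616). Rgs7bp, the membrane anchor of Rgs7, had 283 and 113 CPM in mCherry SD and 137.7 and 84.5 CPM in mCherry HFD and was not called. Rgs1 rose from 0 and 0.353 CPM to 45.2 and 36.1 CPM. Rgs1 is known from immune cells, and the summed level of the 12 macrophage markers in these nuclei was 1411 and 1168 CPM in mCherry SD and 2076 and 2188 CPM in mCherry HFD, with Cd68 at 0 in the first mCherry SD mouse. Their part in the rise of Rgs1 was not tested.

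Sntb1, the syntrophin adaptor, stood at 2495 and 1388 CPM in mCherry SD, at 638 and 475 CPM in mCherry HFD, at 943 and 852 CPM in Tert HFD and at 1132 and 1256 CPM in TertCi HFD. The mCherry SD mice differed from each other by more than those of any other group, and the lower of them was still above all high-fat mice. The log2 fold change was -1.80 (SE 0.279) with the diet, 0.69 (SE 0.273) with Tert and 1.10 (SE 0.274) with TertCi. The dystrophin complex had 15 tested genes of 19 besides Sntb1, and with the diet 7 fell and 1 rose. Dtna, the dystrobrevin that binds syntrophins, fell from 180.3 and 158 CPM to 16.5 and 16.7 CPM (log2 fold change -3.35, SE 0.218, edgeR adjusted p 5.18e-05) and was 2.41 higher in each of the Tert groups than in mCherry HFD. The sarcoglycan Sgcd and the syntrophin Sntg2 fell by 1.29 and 1.91 with the diet. In TertCi HFD against mCherry HFD 8 genes of this list rose and 1 fell, and in Tert HFD 6 rose and 1 fell. The 23 adipocyte identity genes, given below, were one-sided too: 10 rose and 0 fell with TertCi, and 6 rose and 0 fell with Tert. Their median log2 fold changes were 1.02 and 0.75, against 0.80 and 0.69 in the dystrophin list. In the other pathway lists the numbers of genes that rose and fell lay closer together. With TertCi 3 rose and 6 fell in the RGS list, 5 and 5 in the P450 list and 3 and 2 in the glutamate list. It was 2 and 1 in the activin list, 4 and 2 in the vesicle fusion list and 1 and 2 in the EVA1 list, both lists given below. With Tert the same 6 lists had 1 and 2, 3 and 3, 3 and 1, 1 and 0, 2 and 1, and 1 and 2. Dystrophin itself (Dmd), dystroglycan (Dag1) and the closest relative of Sntb1, Sntb2, were not called in any of the comparisons. Lama2, the laminin chain outside the cell, rose by 2.91 with the diet, and it is also 1 of the 9 progenitor markers.

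Eva1c, the Slit-binding membrane protein, was the faintest member that passed the filter on low counts. It stood at 29.98 and 20.7 CPM in mCherry SD, at 2.52 and 0 CPM in mCherry HFD, at 4.52 and 10.4 CPM in Tert HFD and at 22.4 and 7.93 CPM in TertCi HFD. The 0 of the second mCherry HFD mouse is a count of 0 UMIs among 935250, which allows up to 3.21 CPM before TMM scaling. The first TertCi HFD mouse reached the range of the standard-diet mice and the second TertCi HFD mouse did not. The log2 fold change was -3.64 (SE 0.714) with the diet, 1.75 (SE 0.778) with Tert and 2.99 (SE 0.710) with TertCi, and without the first mCherry HFD mouse the diet difference became -9.86, against a lone mouse with 0 UMIs, so that size is no bound. Over all alternatives run the Tert difference of Eva1c ranged from 0.70 to 7.97 and its TertCi difference from 1.51 to 9.20. In nuclei of equal depth Eva1c was seen in 1.55% and 1.83% of adipocyte-like nuclei on the standard diet and in 0.794% and 0% in mCherry HFD, while 0% and 1.90% of macrophage-like nuclei of the standard-diet mice held it (0 of 101 nuclei allows up to 2.97%). At this depth the share could not be told from that background. Of the EVA1 and Slit-Robo list, 9 of 13 other genes were tested: Slit3 fell from 2773 and 2863 CPM to 783 and 898 CPM (log2 fold change -1.75, edgeR adjusted p 0.00215), and Slit2 and Robo1 rose by 1.97 and 1.95 beside the rise of progenitor marker RNA given above.

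Syt1, the vesicle calcium sensor, went against the description of the set. It had 0 and 5 UMIs in adipocyte-like nuclei of mCherry SD, 7 and 0 in mCherry HFD, and 1 UMI in each Tert and TertCi mouse, among 935250 to 13229223 UMIs. The levels were 0 and 0.878 CPM on the standard diet and 1.39 and 0 CPM in mCherry HFD, before TMM scaling, and the groups overlapped. Syt1 did not pass the filter on low counts, so a loss from adipocytes was not detectable at this depth. Its relative Syt2 was well measured and fell from 258 and 126 CPM to 40.9 and 37.8 CPM (log2 fold change -2.26, SE 0.325, edgeR adjusted p 0.00170). Syt2 was higher by 1.87 with Tert and by 1.58 with TertCi (edgeR adjusted p 0.0111 and 0.00800). The vesicle fusion list had 16 tested genes of 30 besides Syt1, with 2 higher and 3 lower on the high-fat diet. Stx6 and Rab10, which serve vesicle traffic between the Golgi, endosomes and plasma membrane, fell by 0.73 each, and Nsf, Snap23 and Stxbp3 of the general fusion machinery were not called.

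**Figure D1:**
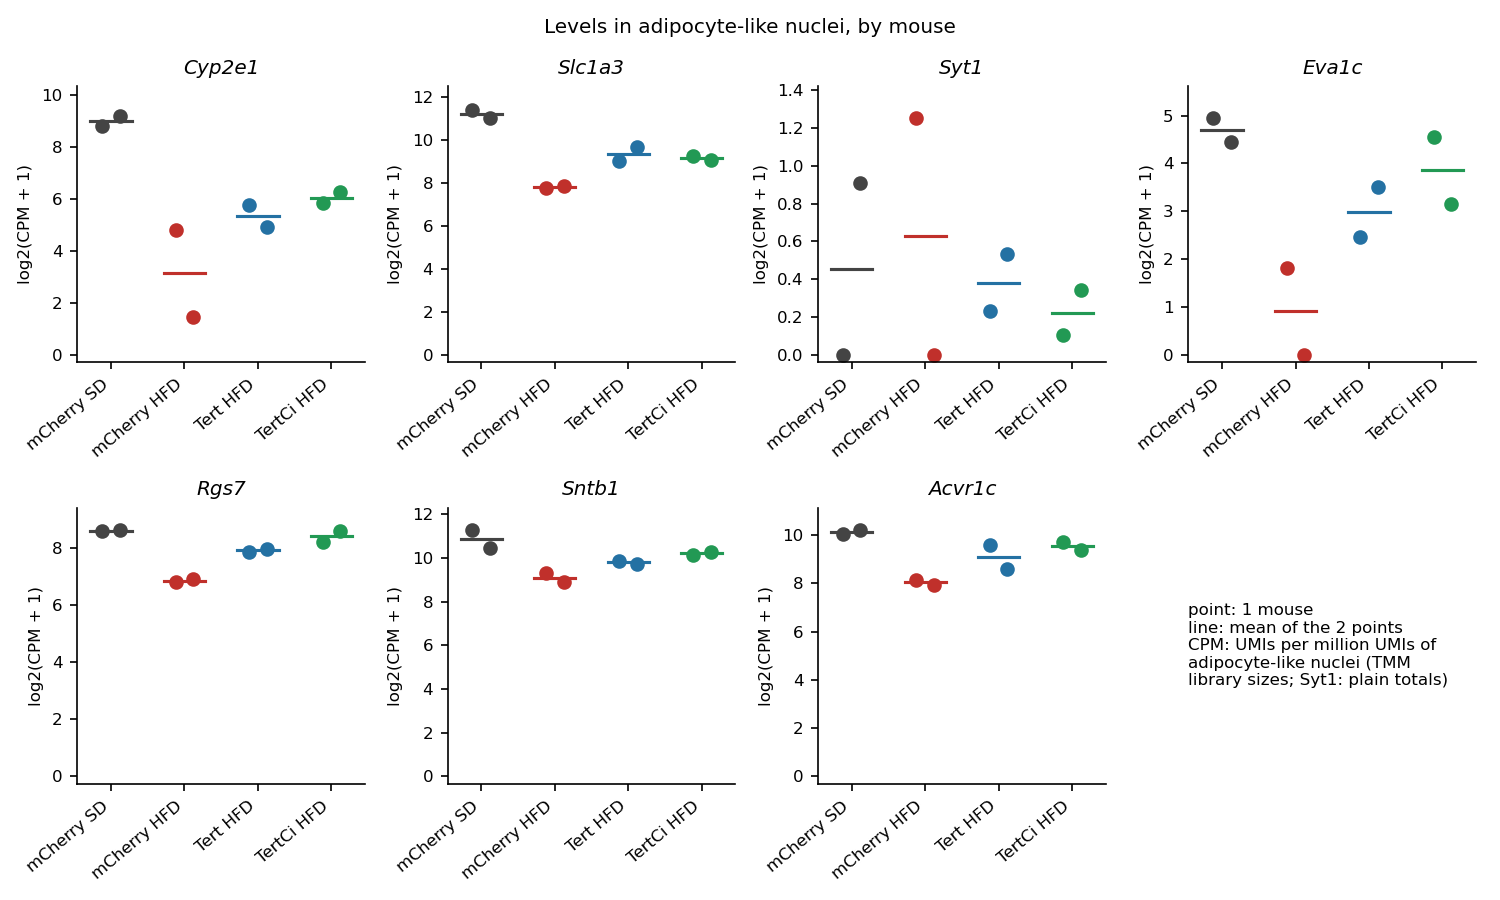
Level of each member in adipocyte-like nuclei, 1 point per mouse and a line at the mean of the 2 points, with log2(CPM + 1) on the vertical axis (TMM-scaled CPM, or plain CPM for Syt1) and the 4 groups along the horizontal axis. For 6 members both mCherry HFD mice lie below both mCherry SD mice, as for Cyp2e1 at 27.2 and 1.76 against 451 and 589 CPM, and Syt1 stays at or below 1.39 CPM in all 8 mice.

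Of the 6 members that passed the filter, 6 had both mCherry HFD mice below both mCherry SD mice, a pattern that 32% of the 15268 genes tested showed, and this contrast chose the members. The mean in mCherry HFD was 2.79% of the mCherry SD mean for Cyp2e1, 4.97% for Eva1c, 9.44% for Slc1a3, 23.7% for Acvr1c, 28.7% for Sntb1 and 29.5% for Rgs7. Both Tert HFD mice lay above both mCherry HFD mice for 6 of 6 members (27.7% of all genes tested), and both TertCi HFD mice for 6 of 6 (31.4%). Markers of other cells moved with these groups in the same nuclei. The summed level of the 9 progenitor markers was 607 and 535 CPM in Tert HFD and 483 and 490 CPM in TertCi HFD, below both mCherry HFD mice, and by edgeR's test 7 of 9 fell with Tert and 8 of 9 with TertCi. The 12 macrophage markers summed to 1450 and 1071 CPM in Tert HFD and 813 and 917 CPM in TertCi HFD, and 5 and 7 of 12 fell. Their part in the members' values was not tested. These comparisons share the mCherry HFD mice with the diet comparison. In Tert HFD the means came to 8.02% of the mCherry SD mean for Cyp2e1, 27.9% for Slc1a3, 29.4% for Eva1c, 46.2% for Sntb1, 51.7% for Acvr1c and 61.7% for Rgs7. In TertCi HFD they came to 12.8% for Cyp2e1, 23.8% for Slc1a3, 59.8% for Eva1c, 61.5% for Sntb1, 67.5% for Acvr1c and 87.9% for Rgs7. Both Tert mice stayed below both standard-diet mice for 6 of 6 members (20% of all genes tested) and both TertCi mice for 4 of 6 (19.6%), Eva1c and Rgs7 being the exceptions. By these means Cyp2e1 had the lowest share of the standard-diet level in both Tert groups, and Slc1a3 and Eva1c were close to each other in Tert HFD.

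Over all 7 pathway lists 107 of 151 non-member genes were tested, of which 12 rose and 26 fell with the diet, 17 rose and 10 fell with Tert, and 26 rose and 19 fell with TertCi. Of all genes tested, 10.3% were called with Tert (3.65% higher and 6.6% lower) and 24.3% with TertCi (9.89% higher and 14.4% lower). These counts depended on how adipocyte RNA was separated: with free RNA subtracted from the nuclei the calls came to 8 with the diet and 0 in each of the Tert comparisons, and in cluster 17 alone to 10, 5 and 15. The share of UMIs subtracted differed between the groups and is given below. Without the first or the second mCherry HFD mouse they came to 17 and 23 with the diet, 5 and 4 with Tert, and 25 and 23 with TertCi, without the first mCherry SD mouse to 25 with the diet and without the first TertCi HFD mouse to 27 with TertCi.

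The adipocyte identity genes give the setting for these values. Their summed level, over 23 genes such as Adipoq, Lipe, Pparg and Ghr, was 40036 and 40526 CPM in mCherry SD, 24814 and 23092 CPM in mCherry HFD, 35972 and 24917 CPM in Tert HFD and 34058 and 28921 CPM in TertCi HFD. With the diet 11 of the 23 fell by edgeR's test and none was called higher, and their median log2 fold change was -0.97 against 0.05 for all genes tested. Adrb3, the beta-adrenergic receptor of fat cells, fell from 820.4 and 940.1 CPM to 119 and 115 CPM (log2 fold change -2.91, SE 0.185, edgeR adjusted p 5.18e-05). Plin1, Plin4, Acsl1 and Cd36 were not called with the diet. Scaled to the summed identity genes instead of all UMIs, the diet difference was smaller and kept its sign: -3.72 for Cyp2e1, -2.53 for Eva1c, -2.26 for Slc1a3, -0.94 for Acvr1c, -0.65 for Sntb1 and -0.63 for Rgs7. That scaling moved the median of all genes to 1.17. Free RNA to be subtracted was scaled by macrophage and progenitor markers, and its share of the adipocyte-like UMIs differed between the groups. That share was 47.7% and 52.8% in mCherry SD and 43.4% and 55.6% in mCherry HFD. It was 28.2% and 35.4% in Tert HFD and 27.0% and 31.5% in TertCi HFD. With free RNA subtracted from the adipocyte-like nuclei, the Tert difference came to 1.035 (SE 0.292) for Slc1a3, 0.51 (SE 0.315) for Acvr1c, 0.44 for Rgs7 and 0.05 for Sntb1, and the TertCi difference to 0.55 for Slc1a3, 0.74 for Acvr1c, 0.84 for Rgs7 and 0.36 for Sntb1. Cyp2e1 came to 0.72 with Tert and 1.35 with TertCi (SE 0.902 for each), Eva1c to 2.38 (SE 2.28) and 3.64, and the diet differences to between -4.56 for Cyp2e1 and -1.31 for Rgs7 and Sntb1. Scaled to the identity genes, the Tert difference was 0.01 (SE 0.268) for Sntb1, 0.39 (SE 0.235) for Rgs7, 0.42 (SE 0.267) for Acvr1c, 0.53 (SE 0.546) for Cyp2e1, 0.90 (SE 0.278) for Slc1a3 and 1.11 (SE 0.762) for Eva1c. The TertCi difference on that scale ran from 0.21 (SE 0.268) for Sntb1 to 2.09 (SE 0.698) for Eva1c. Each of these Tert differences was smaller than with TMM scaling. Scaling by library shifts all genes by nearly the same amount, so the smaller size is no result about the members.

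**Figure D2:**
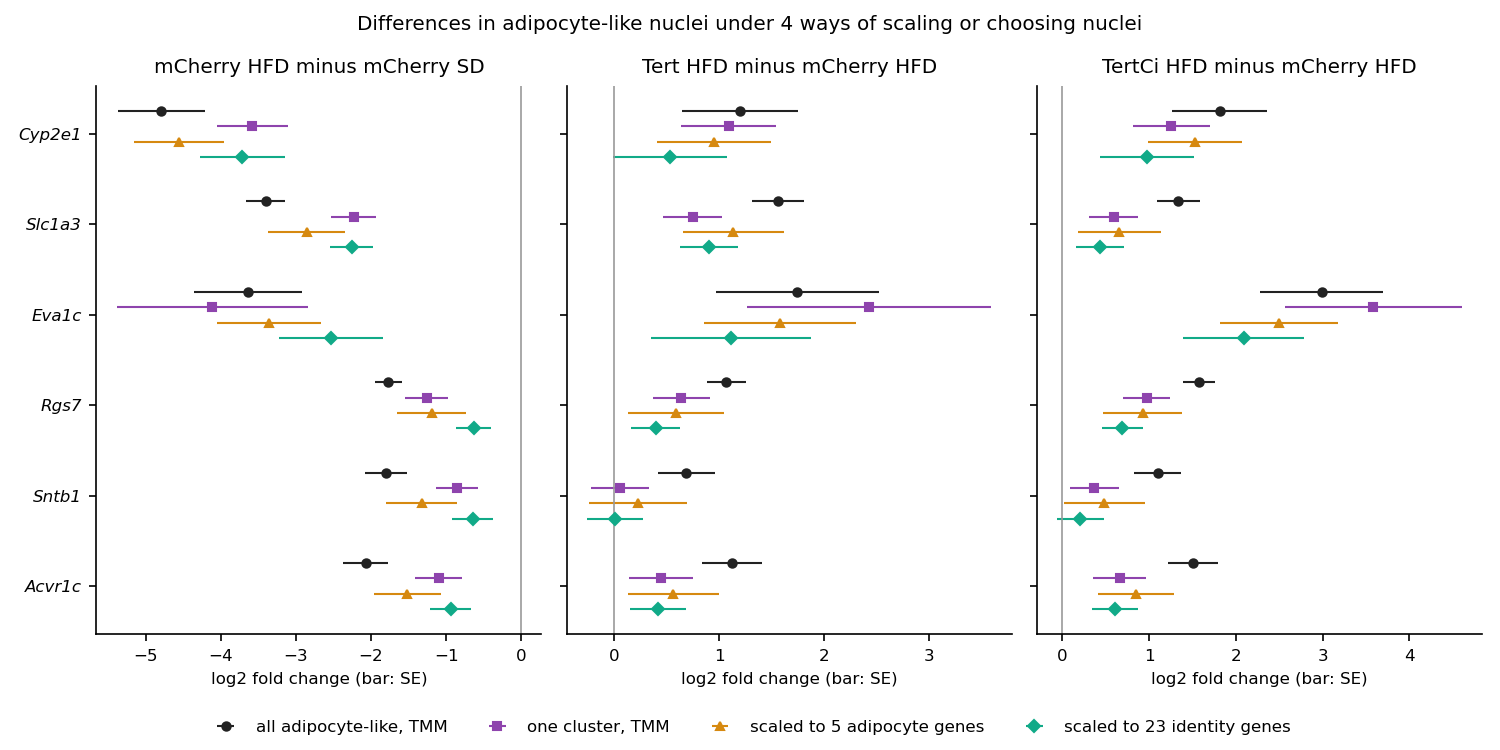
Log2 fold change of the 6 measured members in adipocyte-like nuclei on the horizontal axis, with bars of 1 SE, for all adipocyte-like nuclei, cluster 17 alone, scaling to 5 fat cell genes and scaling to 23 identity genes, in 1 panel per comparison. All plotted diet values lie below 0, the nearest being Rgs7 at -0.63, while the Tert value of Sntb1 reaches 0.01 when scaled to the identity genes. The diet values of cluster 17 rest on 28 and 33 nuclei in mCherry SD and 98 and 18 in mCherry HFD.

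Single clusters were also read, although they were built from genes that included the members. In cluster 9, with 59 to 233 nuclei of each mouse, Slc1a3 was at 1933 and 1485 CPM in mCherry SD, 225 and 203 CPM in mCherry HFD, 458 and 640.02 CPM in Tert HFD and 432 and 366 CPM in TertCi HFD, before TMM scaling. There Acvr1c was at 712 and 837 CPM in mCherry SD, 279.5 and 253 CPM in mCherry HFD, 618 and 241 CPM in Tert HFD and 638 and 484 CPM in TertCi HFD, so the second Tert HFD mouse lay below both mCherry HFD mice. Cyp2e1 in that mouse, at 9.34 CPM, lay between the mCherry HFD mice, at 31.9 and 2.61 CPM. The standard-diet mice stayed above both mCherry HFD mice for each of these genes. In cluster 17 Slc1a3 was at 2159 and 1394 CPM in mCherry SD and 364 and 503 CPM in mCherry HFD. In cluster 8 the mCherry HFD mice had only 6 and 8 nuclei, with Slc1a3 at 805 and 1021 CPM against 2744 and 2245 CPM on the standard diet. With cluster 17 alone the diet difference was -3.58 for Cyp2e1, -2.23 for Slc1a3, -1.26 for Rgs7, -1.10 for Acvr1c and -0.86 for Sntb1. Cluster 17 held only 28 and 33 nuclei of the mCherry SD mice and 98 and 18 of the mCherry HFD mice.

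**Figure D3:**
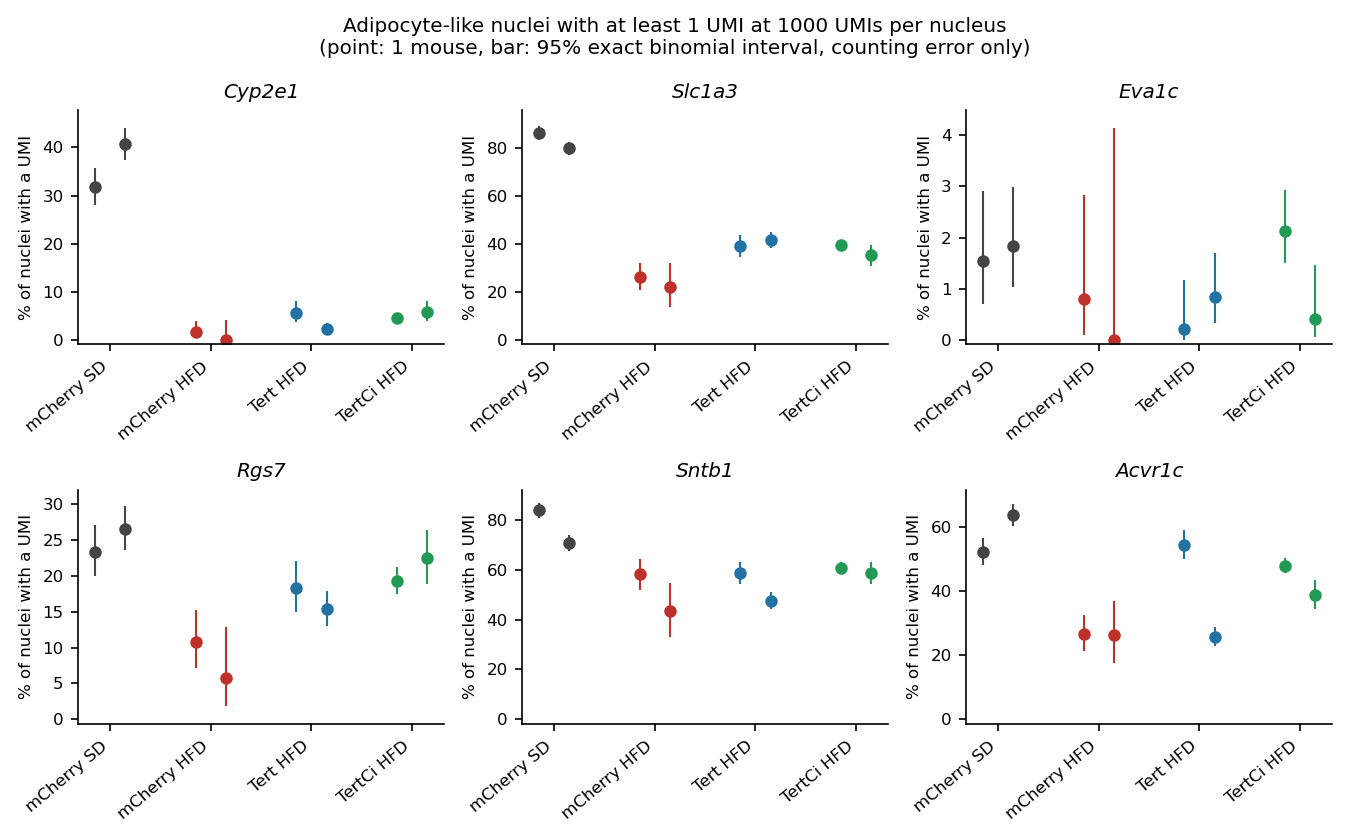
Share of nuclei with at least 1 UMI of each member after every nucleus was thinned to 1000 UMIs, in percent on the vertical axis, for the adipocyte-like nuclei of each mouse (1 point each) by group, with exact 95% binomial intervals that cover counting error only. Slc1a3 was seen in 86.2% and 79.8% of adipocyte-like nuclei of the mCherry SD mice and in 26.2% and 21.8% of those of the mCherry HFD mice.

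Tert HFD against TertCi HFD is the comparison in adipocytes that shares no mouse with the choice of the members. By edgeR's quasi-likelihood test 0 of the 6 members were called (adjusted p 0.812 to 0.925), and 0% of the 15268 genes tested were called. At an unadjusted p under 0.05 there were 1 of 6 members and 925 of all genes, and DESeq2 called 3 of all genes and none of the members. Rgs7 was that member, lower with Tert by 0.51 on the log2 scale (95% interval -0.90 to -0.11, unadjusted p 0.0164). The intervals of the other differences, Tert minus TertCi, ran from -1.74 to 0.51 for Cyp2e1, from -0.31 to 0.76 for Slc1a3, from -2.56 to 0.08 for Eva1c, from -1.01 to 0.19 for Sntb1 and from -1.01 to 0.25 for Acvr1c. They leave room for differences in either direction. Without the second Tert HFD mouse the difference changed sign for Slc1a3, to -0.14, and for Acvr1c, to 0.03.

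Across the 8 mice the levels of the 6 measured members, Syt1 left out, were alike, and the contrast that chose them is part of that likeness. Pearson's r of log2 CPM in adipocyte-like nuclei was 0.813 to 0.901 over the 15 pairs of members, with a median of 0.869. The tested genes closest to the members' mean profile were Nrg4 (r 0.995 over 8 mice), Slc25a33 (0.992), Stc2 (0.988), Cand1 (0.986), Whrn (0.986), Usp15 (0.985), Mettl16 (0.979) and Atg2b (0.978). Nrg4, a growth factor secreted by fat cells, had 1322 and 1163 CPM in mCherry SD, 376 and 251 CPM in mCherry HFD, 691 and 599 CPM in Tert HFD and 739 and 822 CPM in TertCi HFD. The 8 points are libraries that also differ in depth.

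The members were also counted in barcodes that hold no nucleus. Barcodes under 100 UMIs, taken as empty droplets with free RNA, held Slc1a3 at 982 and 992 CPM in mCherry SD, 26.7 and 40.0 CPM in mCherry HFD, 162 and 176 CPM in Tert HFD and 289 and 254 CPM in TertCi HFD. Cyp2e1 stood there at 190.02 and 370.5 CPM in mCherry SD and at 4.60 and 4.33 CPM in mCherry HFD. A carried level was computed for each member and library as its level in adipocyte-like nuclei times the relative level of 5 fat cell genes (Adipoq, Plin1, Plin4, Cidec and Lipe) in the same pool. In these empty barcodes the 5 genes stood at 12.4% to 72.1% of their adipocyte level. Among 4 members the level found was 0.487 to 0.957 times the carried level for Slc1a3, 0.579 to 0.971 times for Acvr1c, 0.429 to 1.01 times for Rgs7 and 0.371 to 1.07 times for Sntb1. The other members ran further above the carried level: Cyp2e1 at 0.672 to 6.89 times, Eva1c at 1.40 to 13.2 times and Syt1 at 3.56 to 27.6 times, where the adipocyte level was not 0. The ratio of 6.89 is that of the second mCherry HFD mouse, and 1 of 8 ratios of Cyp2e1 was above 2. Eva1c in empty barcodes was at 20.1 and 53.0 CPM in mCherry SD and 5.21 and 5.66 CPM in mCherry HFD. It was 14.0 and 6.74 CPM there in Tert HFD and 16.6 and 8.85 CPM in TertCi HFD. Before TMM scaling, adipocyte-like nuclei held 26.9 and 20.5, 3.17 and 0, 4.90 and 8.90, and 20.1 and 6.67 CPM in those groups. They thus lay below the empty barcodes in the second mCherry SD mouse, both mCherry HFD mice, the first Tert HFD mouse and the second TertCi HFD mouse. The part of free RNA in the adipocyte values of Eva1c was not tested. Over all barcodes of a library together, Slc1a3 was at 1097 and 959 CPM in mCherry SD and at 24.1 and 41.0 CPM in mCherry HFD, and in that sum fewer adipocytes and less RNA per adipocyte cannot be told apart.

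In macrophage-like nuclei Slc1a3, Rgs7, Sntb1 and Acvr1c stood near the carried level, and the other members did not in every mouse. By edgeR's test 6 of the 6 members tested there were called lower with the diet (10.7% of 13573 genes tested were lower). With Tert 5 were called higher (8.91% higher) and with TertCi 5 (11.8% higher). The level that the filter on low counts asks for was reached in high-fat mice alone by 5 members, but in both mCherry HFD mice by Sntb1 only. Cyp2e1, Rgs7 and Eva1c reached it in 0 mCherry HFD mice, and Slc1a3 and Acvr1c in 1. For members other than Sntb1 these counts are thus a description and no support. The calls of Sntb1 are a description too, since the comparisons use mCherry mice that chose the members. The part of adipocyte RNA in the calls was not tested. Slc1a3 went from 222 and 137 CPM to 1.87 and 5.90 CPM (log2 fold change -5.83), and was 15.2 and 64.9 CPM with Tert and 25.4 and 23.3 CPM with TertCi. Its level was 0.614 to 1.13 times the carried level over the 8 mice, that of Rgs7 0.418 to 1.35 times, that of Sntb1 0.527 to 0.998 times and that of Acvr1c 0.668 to 1.30 times. Cyp2e1 ran from 0.359 to 9.56 times, Eva1c from 0 to 14.1 times with a median of 4.74, and Syt1 from 0 to 243 times, on adipocyte levels near 0. Of the calls with the diet, 0 had a level over 2 times the carried level in both standard-diet mice, and of those with Tert 1 had, Cyp2e1 at 2.36 and 2.55 times, on 26 and 7 UMIs. Eva1c fell on 7 UMIs of the second mCherry SD mouse alone, the first mCherry SD mouse having 0, and without the second mCherry SD mouse its difference was 5.21. With all mice kept, Eva1c passed the filter through the second mCherry SD mouse and 1 Tert HFD mouse. Its edgeR adjusted p of 0.0486 is no support for a fall. The p was 0.0520 with RLE size factors in edgeR and 0.0717 with DESeq2, and without the first or second mCherry HFD mouse, the first Tert HFD mouse or the first or second TertCi HFD mouse edgeR gave an adjusted p of 0.271, 0.100, 0.0818, 0.122 and 0.0573. Fewer members were called with Tert and with TertCi without the first mCherry HFD mouse, and with TertCi also without the first TertCi HFD mouse. Tert HFD against TertCi HFD gave 0 calls among the members and 0% of all genes.

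**Figure D4:**
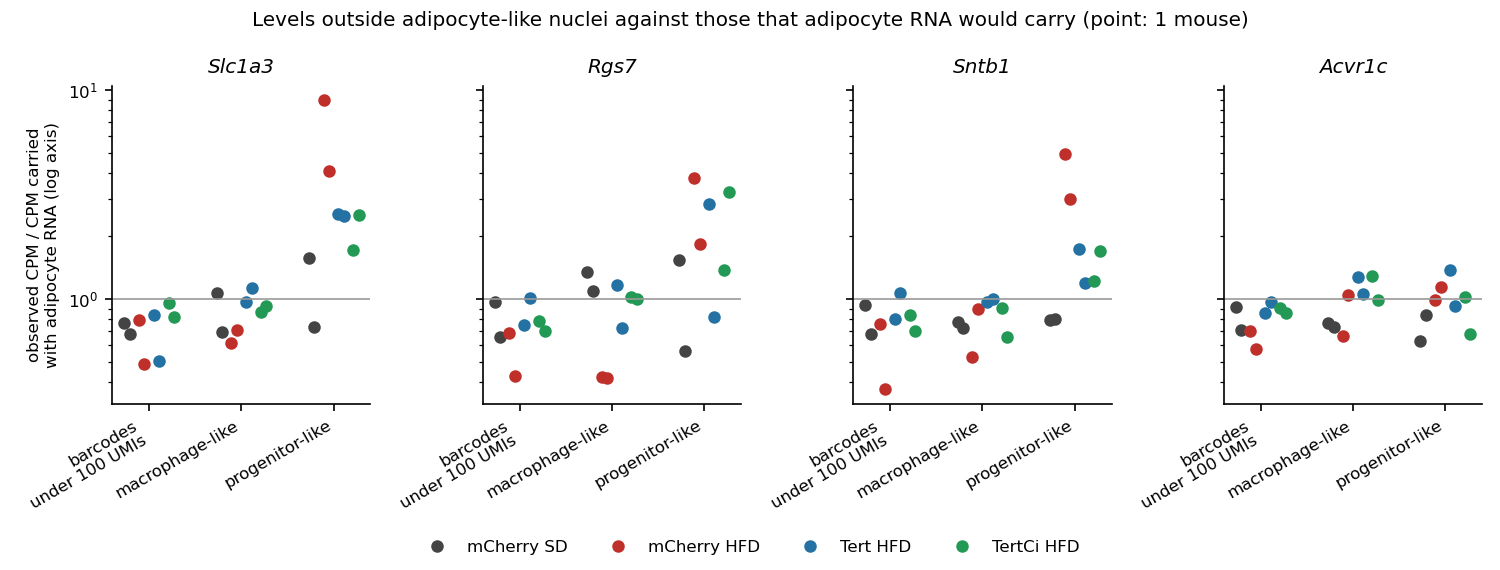
Level found divided by the level carried with adipocyte RNA, on a log vertical axis with a line at equality, for barcodes under 100 UMIs, macrophage-like and progenitor-like nuclei, 1 point per mouse and 1 panel each for Slc1a3, Rgs7, Sntb1 and Acvr1c. Progenitor-like nuclei of the mCherry HFD mice stand highest for Slc1a3, at 8.92 and 4.11 times the carried level, while macrophage-like nuclei run from 0.614 to 1.13 times.

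Progenitor-like nuclei, the fibroblast-like cells from which fat cells form, were not used to choose the members, but came from the same mice. A member that passed the filter on low counts through the standard-diet mice alone had to differ between the diets, which holds for Cyp2e1 and Syt1. In edgeR's test 4 of the other 5 members fell there with the diet (4.11% of 11965 genes tested were lower), namely Slc1a3, Rgs7, Sntb1 and Acvr1c. Without the first mCherry HFD mouse or the second mCherry SD mouse 2 of these 5 were called, Slc1a3 and Acvr1c, beside 0.759% and 1.38% of all genes. Of all 7, 1 rose with Tert (2.74% higher) and 3 rose with TertCi (6.45% higher), while Tert HFD against TertCi HFD gave 0 calls, with 2 of 7 members and 554 of all genes at an unadjusted p under 0.05, and 0 of all genes called by DESeq2. The members called with Tert and with TertCi were no longer called without the first mCherry HFD mouse. The number called with Tert also depended on the first Tert HFD mouse and on either TertCi HFD mouse. With Cyp2e1 and Syt1 counted too, 6 were called lower with the diet, and 5 of these were not over 2 times the carried level in both standard-diet mice. In those mice Slc1a3 stood at 0.734 to 1.57 times the carried level and Rgs7 at 0.562 to 1.55 times. Sntb1 stood at 0.794 to 0.807 times and Acvr1c at 0.629 to 0.835 times. The adipocytes of those mice were used to choose the members, and the part of their RNA in the falls was not tested. For Syt1 no ratio exists in the first mCherry SD mouse, whose adipocyte-like nuclei held 0 UMIs of it, and the ratio of 264.5 in the second rests on 5 adipocyte UMIs. Acvr1c, which fell by 3.83 and rose by 2.55 with Tert and 2.80 with TertCi, was at 0.629 to 1.38 times the carried level in all 8 mice. It reached the filter's level in only 1 of the mCherry HFD mice, so its calls against that group are a description.

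Syt1 was measured in progenitor-like nuclei, where it passed the filter on low counts. Its level in progenitor-like nuclei was 16.2 and 22.2 CPM in mCherry SD, on 10 and 24 UMIs, 0.512 and 0 CPM in mCherry HFD, 0.730 and 1.75 CPM in Tert HFD and 2.47 and 1.20 CPM in TertCi HFD. No high-fat mouse came near the standard-diet mice. Since Syt1 passed the filter through these mice alone, the diet log2 fold change of -5.42 (SE 0.709) is a description, with no test. The Tert and TertCi differences of 1.09 and 2.202 were not called (edgeR adjusted p 0.521 and 0.0842). Without the first mCherry HFD mouse the values were -8.53 with the diet and 4.26 and 5.31 with Tert and TertCi (edgeR adjusted p 0.476 and 0.2245), against a lone mouse with 0 UMIs, so these sizes are no bound. Empty barcodes held Syt1 at 3.19 and 4.64 CPM in mCherry SD, 0.613 and 1.33 CPM in mCherry HFD, 1.70 and 3.81 CPM in Tert HFD and 1.07 and 0.885 CPM in TertCi HFD. Over all barcodes the second Tert HFD mouse was at 4.19 CPM, above the 2.98 and 3.36 CPM of the mCherry SD mice. Nearly all of its UMIs in the standard-diet progenitors, 10 and 22, lay in the progenitor cluster 10, led by C7, at 19.1 and 28.4 CPM, and in that cluster the mCherry HFD mice had 1.02 and 0 CPM and the Tert and TertCi mice 0 to 1.63 CPM. The 0 of the second mCherry HFD mouse rests on 43 nuclei and 130955 UMIs, which allows up to 22.9 CPM, above the 19.1 CPM of the first mCherry SD mouse. In progenitor cluster 6 Syt1 did not have that order: it stood at 0 and 6.13 CPM in mCherry SD, 0.675 and 0 CPM in mCherry HFD, 0.532 and 9.92 CPM in Tert HFD and 4.80 and 0 CPM in TertCi HFD, on 0 to 6 UMIs. Most mCherry HFD progenitor-like nuclei lay in another cluster, numbered 18, with 659 and 245 nuclei.

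Slc1a3 stood above the carried level in progenitors of the high-fat mice. Progenitor-like nuclei of the 6 high-fat mice held 1.73 to 8.92 times the carried level, the mCherry HFD mice 8.92 and 4.11 times. In the first mCherry HFD mouse it stood at 52.8 CPM in cluster 10 (exact Poisson 95% interval 39.4 to 69.3) and at 36.7 CPM in cluster 18 (31.6 to 42.4), but at 2.03 CPM in cluster 6 (0.743 to 4.41), the progenitor cluster led by Adamts16 and Sema3e. In the second mCherry HFD mouse the values were 22.9, 46.6 and 6.63 CPM. Sntb1 had the opposite order: 101 CPM in cluster 6 of the first mCherry HFD mouse (89.8 to 113), 15.2 CPM in cluster 10 and 16.4 CPM in cluster 18. Cluster 6 held Sntb1 at a like level in both diets, with 92.6 and 104 CPM in mCherry SD and 101 and 87.9 CPM in mCherry HFD. The make-up of the class differed between the diets. Cluster 10 held 150 of 201 and 167 of 238 progenitor-like nuclei in mCherry SD, and 135 of 1179 and 43 of 441 in mCherry HFD. The part of this shift in the falls of the whole class was not tested.

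Endothelial-like nuclei were read in a comparison added after the data were seen. None of the members reached the filter's level there in an mCherry HFD mouse, so the counts that follow are a description and no support. By edgeR's test 5 of 6 members were called lower with the diet, against 1 standard-diet mouse with no spread of its own, assumed to vary like the other groups (1.96% of 7408 genes tested were lower), 4 of 6 were called higher with Tert (4.05% higher) and 5 of 6 with TertCi (7.95% higher). Slc1a3 stood there at 0.155 to 1.29 times the carried level, Sntb1 at 0.405 to 0.953 times and Acvr1c at 0 to 1.14 times, while Rgs7 reached 2.60 times on 1 UMI of the first mCherry SD mouse. Tert HFD against TertCi HFD gave 0 calls among the 6, with 0 of them and 505 of all genes at an unadjusted p under 0.05, and DESeq2 called 0 of all genes. Eva1c, the member most above that level, stood at 17.3 CPM in the second mCherry SD mouse, at 11.7 and 15.7 CPM in mCherry HFD, at 46.4 and 51.0 CPM in Tert HFD and at 67.5 and 30.5 CPM in TertCi HFD, and the first mCherry SD mouse was left out for holding only 8 such nuclei. All 4 mice with Tert or TertCi lay above both mCherry HFD mice. Eva1c passed the filter through Tert and TertCi mice alone, and its log2 differences of 1.90 with Tert (SE 0.479) and 2.09 with TertCi (SE 0.469), both called by edgeR, are likewise a description. With the diet the difference was -0.45 (edgeR adjusted p 0.880, 2 mice against 1). The level in the 3 high-fat groups was 39.9 to 199 times the carried level where that could be computed. DESeq2 did not call either difference (adjusted p 0.314 with Tert and 0.169 with TertCi), and both edgeR calls were lost without the first mCherry HFD mouse, that with Tert also without the first Tert HFD mouse and that with TertCi also without the first TertCi HFD mouse (log2 fold changes 1.58 and 1.77, 2.00, and 1.24).

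**Figure D5:**
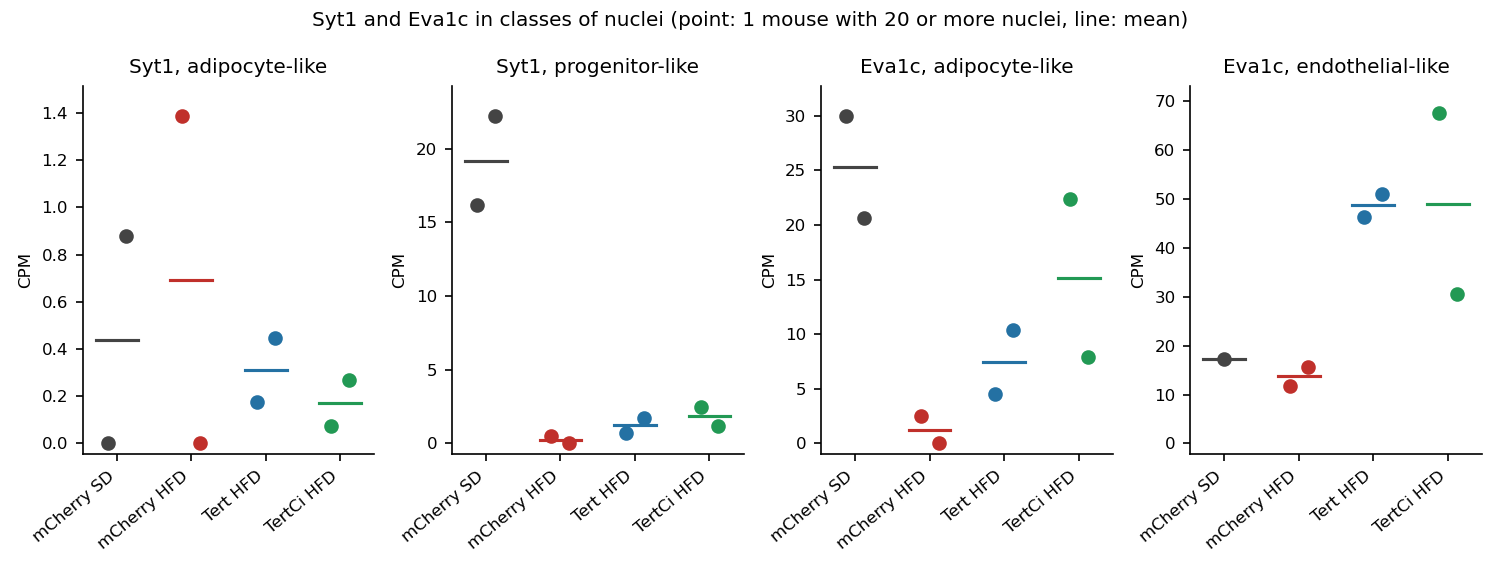
Level of Syt1 in adipocyte-like and progenitor-like nuclei and of Eva1c in adipocyte-like and endothelial-like nuclei, 1 point per mouse with 20 or more nuclei and a line at the group mean, in CPM on the vertical axis with the 4 groups along the horizontal axis. Syt1 is seen in progenitor-like nuclei of the mCherry SD mice at 16.2 and 22.2 CPM, and Eva1c in endothelial-like nuclei is higher in the Tert mice (46.4 and 51.0 CPM) than in the mCherry HFD mice (11.7 and 15.7 CPM).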

How the data were processed

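The files hold deposited UMI counts per gene and barcode, with no normalization by the authors. They come from Cell Ranger, given as 7.1.0 per the file headers and as 5.0.1 with bcl2fastq 2.20.0 and mm39 per the submitters' processing notes. All barcodes were deposited. Nuclei were sorted by flow from snap-frozen tissue, per the labels' protocols. Barcodes above 10% of the 99th percentile of the top 5000 barcodes (at least 500 UMIs), with 300 or more genes and at most 5% mitochondrial UMIs, were kept. The automatic doublet threshold marked nearly none, so the highest-scoring nuclei, at 0.8% per 1000 nuclei, were removed. Nuclei were clustered with scanpy 1.11.5 (Python 3.11.15) and named from fixed markers. Counts summed per mouse and class were fitted with edgeR 4.0.16 (R 4.3.3; filterByExpr, TMM, quasi-likelihood test, Benjamini-Hochberg adjustment over all genes tested), with DESeq2 1.42.0 as an alternative. Calls are at adjusted p under 0.05. The fits were tested on simulated data. Exact binomial and Poisson intervals and limits from 3 counts cover counting error only. Members and lists were chosen with earlier results of these data known. Named genes are the members, at most 4 called genes of each list with the smallest adjusted p and at most 3 not called with the highest mean CPM, and the 8 genes nearest the members' profile. Beyond that rule, cell markers, adipocyte identity genes, genes that lead a cluster and those said to be named after their values were seen are also given. Alternatives were other scalings, filters, nucleus definitions and left-out mice.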

Additional observations from a re-analysis of the deposited data

Results flagged for a closer look

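Members also appeared in clusters outside the named classes, which entered no comparison of the report. The cluster with Eva1c below was counted in the alternative that adds mixed clusters to the adipocytes. Cyp2e1 stood at 327 CPM and Syt1 at 83.6 CPM in a small unnamed cluster of the first mCherry HFD mouse led by Alb and Cps1, which are known as liver genes, with 32 of its 37 nuclei from that mouse. Eva1c stood at 224 CPM in an unnamed cluster of the second mCherry SD mouse led by Myh11, Actg2 and Rbfox3, with 283 nuclei. Both clusters came from 1 mouse almost alone, and each value is above the limit that a count of 0 allows.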

How the results depend on the processing

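In adipocyte-like nuclei the 6 measured members were lower in mCherry HFD than in mCherry SD, and 0 were called between Tert HFD and TertCi HFD, under all alternatives run. Of the single-gene values under alternatives, 398 counted as the same, 104 moved and 2 changed sign: without the second Tert HFD mouse, Tert minus TertCi was -0.14 for Slc1a3 and 0.028 for Acvr1c. With a mouse left out these ran from -0.14 to 0.52 and from -0.96 to 0.028. Between Tert and TertCi a value counted as the same by its sign and call, whatever its size. In the other comparisons its shift had to lie within the SD between mice. That SD reached 1.88 on the log2 scale for Cyp2e1 and 1.59 for Eva1c. With no doublets removed 13 values moved and 11 counted as the same.
Pathway genes called, 38 with the diet, came to 8 with free RNA subtracted, 70 scaled to the identity list, 21 with no doublets removed, 10 in 1 adipocyte-like cluster and 17 to 44 with a mouse left out. Those called with Tert, 27, came to 0 with free RNA subtracted, 7 with mixed clusters counted, 42 with no filter on low counts, 5 with no doublets removed, 13 with members left out of clustering, 5 in 1 cluster, 8 with nuclei chosen one by one, 11 at 1000 or more UMIs and 4 to 26 with a mouse left out. Those called with TertCi, 45, came to 0 with free RNA subtracted, 18 with no doublets removed, 15 in 1 cluster, 26 scaled to 5 fat cell genes, 29 at 1000 or more UMIs and 23 to 53 with a mouse left out. Between Tert and TertCi, 0 became 3 with no filter. All but the filter and the left-out mice were chosen after seeing the data or extended to these lists then.
Members called in progenitor-like nuclei and over 2 times the carried level numbered 1 with the diet (Syt1, whose call is no support since it passed the filter through mCherry SD mice alone and 1 of these has no ratio), 0 with Tert and 0 with TertCi. The numbers called in progenitor-like nuclei with Tert and with TertCi depended on the filter and on single mice. With the diet, 4 to 6 were called there with a mouse left out, which includes Cyp2e1 and Syt1, and 2 to 4 without them, beside 0.759% to 5.66% of all genes. In macrophage-like nuclei DESeq2 and RLE size factors each gave 5 with the diet, beside 8.88% and 9.36% of all genes called lower. With a mouse left out only the diet call of Eva1c changed. There 0, 1 and 0 calls with the diet, Tert and TertCi were over 2 times the carried level. The numbers called with Tert and with TertCi depended on single mice. Those calls in macrophage-like nuclei, Sntb1 included, are a description and no support, as given above. Eva1c in endothelial-like nuclei, added after seeing the data, was 1.86 and 1.93 by DESeq2, not called, and 1.58 to 2.06 and 1.24 to 2.46 with a mouse left out. The cause of these shifts was not tested. Depth limits Eva1c and Syt1. No paired analysis was possible because the groups share no replicate number.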
